A study of Mus musculus with 22 samples.

Results

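The cornified envelope genes were taken as every row of the expression files whose symbol begins with Lce and a digit or with Sprr, together with Lor, Ivl, Flg2, Hrnr, Rptn, Crnn, Tchhl1, Cnfn and Krtdap. This rule gave 41 of the 21110 rows. They comprise 13 Lce1 genes, 4 Lce3 genes, Lce6a, 2 Sprr1 genes, 10 Sprr2 genes, Sprr3, Sprr4 and the 9 genes named singly. Flg (profilaggrin), which the rule also names, is not analysed here. The rule used symbols only and no measured value.

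The cornified envelope is the insoluble protein shell that replaces the plasma membrane of a keratinocyte as it becomes a dead cell of the skin surface. Transglutaminases cross-link small proline- and glycine-rich proteins to it in turn: involucrin (Ivl) early, loricrin (Lor) as the bulk protein, the small proline-rich proteins (Sprr genes) as bridges, and the late cornified envelope proteins (Lce genes) near the end. S100-fused type proteins (Hrnr, Flg2, Rptn, Crnn and Tchhl1) join keratin filaments or the envelope, and several of them, like the trichohyalin family, are also known from the hair follicle. Most of these genes lie side by side in the epidermal differentiation complex, whereas Cnfn (cornifelin) and Krtdap (a secreted product of differentiating keratinocytes) lie elsewhere.

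RNA-seq had been made from ears of C57BL/6 mice of 2 genotypes at 2, 8 and 10 weeks of age: wild type (WT), and mice in which Socs3, an inhibitor of cytokine signalling through STAT3, is deleted with a keratin 5-driven knockout (Socs3 cKO). Each genotype and age had 4 libraries, except WT at 8 and at 10 weeks, which had 3 each. Keratin 5 is made by basal keratinocytes, and the cells that derive from them inherit the deletion, so other cells of the ear keep the gene. The labels name keratinocytes as the source and the ear as the tissue. All libraries held markers of other ear tissue: the summed level of 7 skeletal muscle genes was 519 to 3564 FPKM, and the libraries are therefore described as whole ear. Levels are FPKM, fragments scaled to transcript length and to the mapped fragments of the library. The scaling is meant to let genes of different length be set side by side.

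The libraries were not equally comparable. The Socs3 level was 9.71 to 10.3 FPKM in WT against 1.25 to 12.6 FPKM in cKO at 2 weeks, but 0.604 to 1.36 against 1.60 to 8.47 FPKM at 8 weeks and 2.02 to 4.81 against 29.8 to 47.7 FPKM at 10 weeks, which goes against the label at the 2 later ages. The ranges overlapped at 2 weeks, and the difference there did not pass (cKO minus WT -0.86 on the log2 scale, limma adjusted p = 0.107). Groups are therefore called by their labels throughout. In the 6 WT libraries of 8 and 10 weeks, 35.0% to 74.2% of 1203 olfactory and vomeronasal receptor genes were listed above 0, against 3.33% to 7.32% in the other 16. The median level of the 14139 tested genes was 2.34 to 4.57 FPKM in WT at 8 weeks and 5.22 to 7.10 FPKM in WT at 10 weeks. It was 5.05 to 9.39 FPKM in the other groups. The value of 5.05 FPKM was that of cKO replicate 1 of 2 weeks, against 7.51 to 8.67 FPKM in the rest of its group. Without this library 3965 of all tested genes were called at 2 weeks, against 6334 with it (limma), and 24 against 26 of the cornified envelope genes. The median change of all tested genes (cKO minus WT, log2) took the values -0.15, 0.82 and 0.24 at 2, 8 and 10 weeks. Results at 8 and 10 weeks are therefore given also after median-of-ratios scaling where it changed a call or a direction. This scaling sets that median to 0.00 at both ages. The Y-linked gene Eif2s3y was above 1 FPKM in 1 of 4, 0 of 3 and 1 of 3 WT libraries (2, 8 and 10 weeks) and in 2 of 4 libraries of each cKO group, so sex and genotype were not balanced. In whole ear, fewer keratinocytes and less RNA per keratinocyte cannot be told apart.

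The 250 bases before the start of 7 genes are shown because these genes moved apart from their neighbours or, for Lce1l, had the largest change of a subfamily that moved together. The capitals mark 2 motifs, both searched on either strand: TATAAA, core letters of the TATA box, and TGANTCA. AP-1, a dimer of Fos and Jun proteins, binds TGACTCA or TGAGTCA. The search with N also took in TGAATCA and TGATTCA, so a match is AP-1-like letters and not always an AP-1 site. Sequences are from RefSeq on GRCm38.p6, a later build than the mm9 of the expression files, and read 5′ to 3′ on the gene's strand. Crnn (cornulin) lies at chr3:93144539-93144788, plus strand, and holds both motifs. Tchhl1 (trichohyalin-like 1) lies at chr3:93468504-93468753, plus strand, with TGANTCA. Hrnr (hornerin) lies at chr3:93319499-93319748, plus strand, with a TATA box. Sprr1a at chr3:92485882-92486131 and Sprr1b at chr3:92438780-92439029, both on the minus strand, hold both motifs. Sprr1a holds TGANTCA at 2 places, each reading TGAGTCA, while in Crnn, Tchhl1 and Sprr1b the letters read TGAATCA. Lce1l at chr3:92851287-92851536 has neither motif, and Lce1m at chr3:93019062-93019311 has a TATA box only. Both lie on the minus strand.
Crnn: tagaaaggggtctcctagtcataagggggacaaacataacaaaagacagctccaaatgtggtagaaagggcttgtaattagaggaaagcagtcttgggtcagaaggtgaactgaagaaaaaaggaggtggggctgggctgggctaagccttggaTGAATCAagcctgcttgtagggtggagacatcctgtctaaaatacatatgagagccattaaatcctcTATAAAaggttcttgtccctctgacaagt
Tchhl1: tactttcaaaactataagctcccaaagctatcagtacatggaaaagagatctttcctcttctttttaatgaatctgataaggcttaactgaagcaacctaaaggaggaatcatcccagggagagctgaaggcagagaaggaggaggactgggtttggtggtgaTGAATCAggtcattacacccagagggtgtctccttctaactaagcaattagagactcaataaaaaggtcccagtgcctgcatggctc
Hrnr: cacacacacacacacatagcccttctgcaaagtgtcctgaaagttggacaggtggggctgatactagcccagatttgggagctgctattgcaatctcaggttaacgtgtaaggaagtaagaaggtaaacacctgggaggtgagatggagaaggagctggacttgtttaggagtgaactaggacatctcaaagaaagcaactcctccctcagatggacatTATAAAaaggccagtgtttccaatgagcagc
Sprr1a: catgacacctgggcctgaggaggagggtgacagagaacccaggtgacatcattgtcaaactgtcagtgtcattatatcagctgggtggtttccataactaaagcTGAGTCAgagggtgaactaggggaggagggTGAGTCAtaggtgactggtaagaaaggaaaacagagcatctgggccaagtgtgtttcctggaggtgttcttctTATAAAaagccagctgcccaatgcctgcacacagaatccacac
Sprr1b: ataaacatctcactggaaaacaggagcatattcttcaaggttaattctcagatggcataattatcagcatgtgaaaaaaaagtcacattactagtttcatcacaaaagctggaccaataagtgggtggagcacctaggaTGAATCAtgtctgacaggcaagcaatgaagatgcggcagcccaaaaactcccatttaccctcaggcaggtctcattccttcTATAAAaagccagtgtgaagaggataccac
Lce1l: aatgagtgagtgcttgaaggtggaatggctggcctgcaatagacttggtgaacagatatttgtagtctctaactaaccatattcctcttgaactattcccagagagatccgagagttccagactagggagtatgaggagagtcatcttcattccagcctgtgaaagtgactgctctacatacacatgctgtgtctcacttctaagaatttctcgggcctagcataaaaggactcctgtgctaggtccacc
Lce1m: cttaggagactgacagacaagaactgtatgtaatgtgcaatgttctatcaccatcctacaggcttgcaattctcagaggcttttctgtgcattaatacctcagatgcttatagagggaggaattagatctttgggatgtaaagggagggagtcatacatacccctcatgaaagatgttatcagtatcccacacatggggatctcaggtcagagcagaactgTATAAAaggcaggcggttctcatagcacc

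Promoters were found for 38 of the 41 genes. Lce1f, Sprr2g and Sprr2j-ps had no entry. TATAAA stood in 19 of the 38 (50%), against 13% of all 27025 promoters of the same length. TGANTCA stood in 16 of 38 (42.1%), against 6.87% of all. The TGANTCA letters, which are wider than the AP-1 site, were spread unevenly over the subfamilies. They were in 7 of 8 Sprr2, 2 of 2 Sprr1 and 7 of 9 singly named genes, and in 0 of 12 Lce1 and 0 of 4 Lce3 promoters. Each of the 7 Sprr2 promoters held a match 193 to 198 bases before the start. The Sprr2 promoters shared 45.5% to 89.3% of aligned bases with each other (median 64.1%). The counts within a subfamily, and the totals over the 38, are therefore not of independent promoters. TTCNNNGAA, the core letters of a STAT site, stood in the Lce1l promoter alone among the 38 (7.18% of all promoters), and AACCGGTT, a grainyhead site, in 0 of 38 (0.122% of all). Lce1m and Lce1l were the least alike of their subfamily. The Lce1m promoter shared 47.3% to 51.7% of aligned bases with the 11 other Lce1 promoters (median 49.3%), and that of Lce1l shared 49.1% to 53.1% (median 51.5%), while the remaining Lce1 promoters shared a median of 65.5% with each other. A match of letters is a description and does not show binding.

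Levels among the cornified envelope genes spanned from 0 to 16408 FPKM. In WT ear at 2 weeks the order of mean levels was Krtdap (1650 ± 136 FPKM, SD, n = 4), Sprr4 (975.5 ± 140), Sprr1a (784 ± 78.2), Lor (663 ± 88.6) and Lce1m (295.5 ± 34.1). Sprr4 and Sprr1a, and Sprr1a and Lor, differed by less than the sum of their SDs, while the steps above Sprr4 and below Lor were larger. Hrnr (28.6 ± 6.70), Ivl (44.8 ± 7.97) and Flg2 (52.9 ± 11.2) were far lower. These genes differ widely in length. The longest GENCODE M21 transcript has 231 bases for Sprr4 and 470 for Krtdap, against 1922 for Ivl, 11187 for Hrnr and 20803 for Flg2. The lengths that the authors' processing used are not given, and the part of length in this order was not tested. The 2 Sprr1 genes were unlike: Sprr1b was at 3.16 ± 0.749 FPKM where Sprr1a was at 784 ± 78.2. Lce3 and Sprr2 genes were low in WT at 2 weeks. Sprr3, a gene of oral and oesophageal epithelium, was above 0 in 4 of 22 libraries and at 0.359 FPKM at most.

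**Figure D1:**
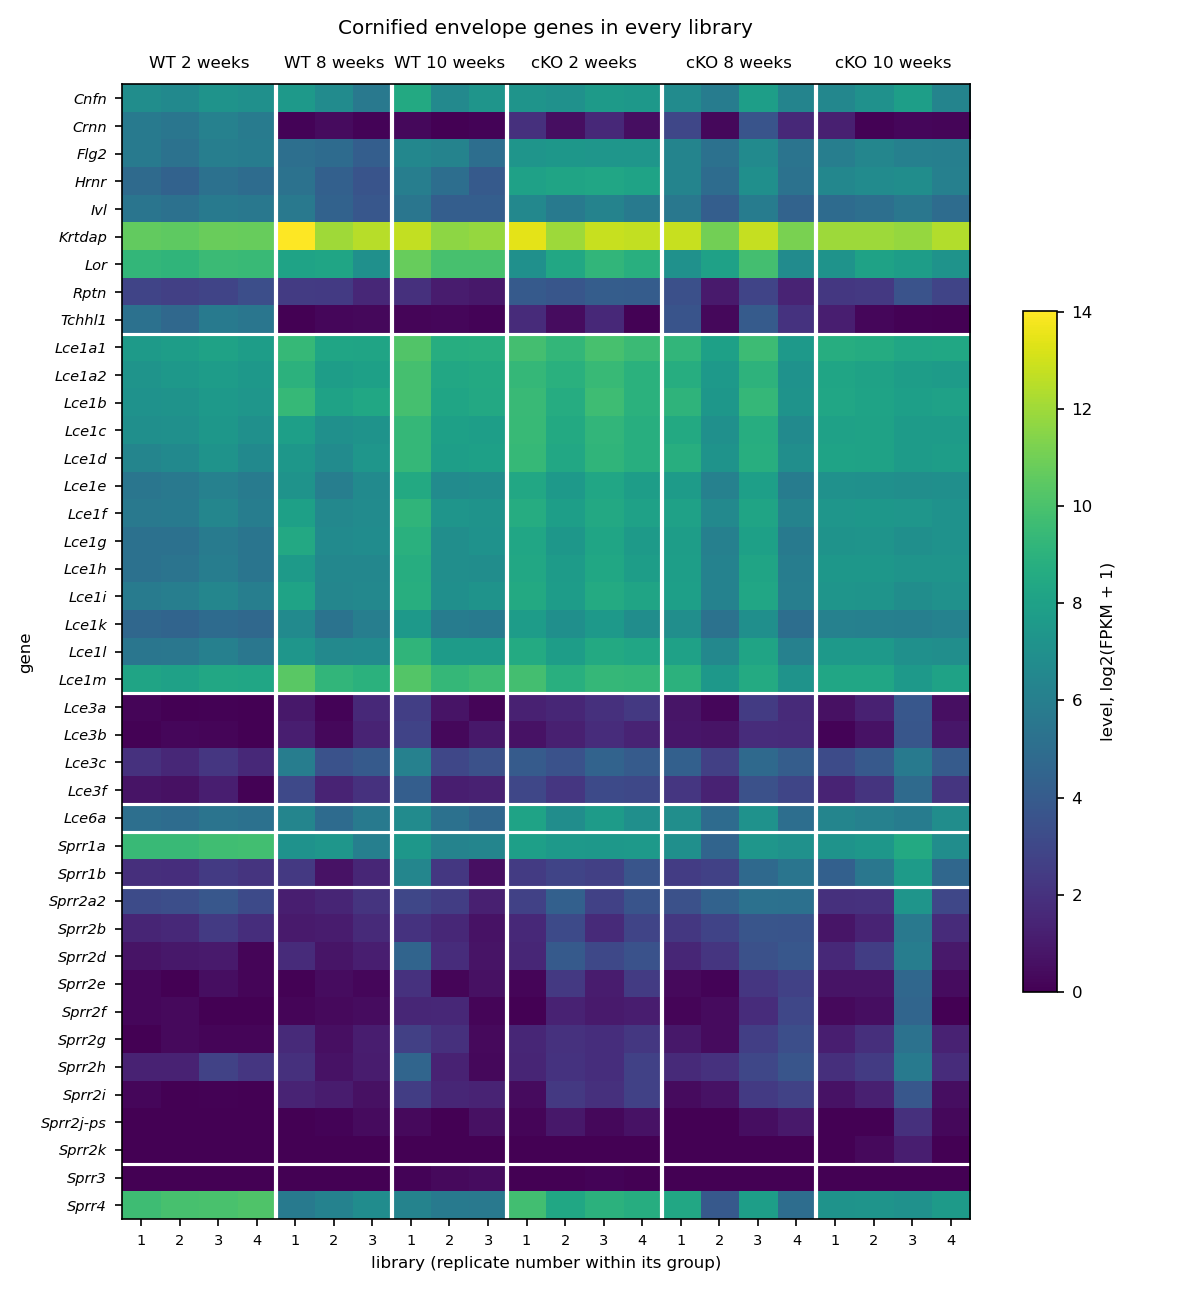
Level of each of the 41 genes (rows) in each of the 22 libraries (columns, grouped by label), colour giving log2(FPKM + 1) and white lines dividing groups and subfamilies. Krtdap is the brightest row, Crnn and Tchhl1 are bright in the 4 WT libraries of 2 weeks, and replicate 3 of cKO at 10 weeks is brighter than its group across the Sprr2 rows.

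At 2 weeks, the cornified envelope genes split by subfamily. The Lce1 genes were higher in cKO ear together, Hrnr, Flg2 and Krtdap were higher, and Crnn, Tchhl1 and Sprr1a were lower. Of the 41 genes, 38 reached 1 FPKM in 3 or more libraries and were tested. Among these, 23 were higher in cKO, 3 were lower and 12 did not pass (limma, Benjamini-Hochberg adjusted p under 0.05). Over all tested genes 17.7% were higher and 27.1% lower. The median change of the 38 was 1.70, against -0.15 for all genes tested. Of the 25 tested members outside Lce1, 10 were higher and 3 lower, with a median of 1.05. A change is the difference of group means of log2(FPKM + 1), and understates changes of low genes. Genes near 0 in 1 group entered the test through the other, so the 38 do not stand for all 41. The 3 untested genes were Sprr3, Sprr2k and Sprr2j-ps. Markers of other tissues moved too: 5 of 7 skeletal muscle genes (median 1.97; summed level 688 to 1048 FPKM in WT, 1693 to 3564 FPKM in cKO) and 5 of 8 sebaceous gland genes (median 1.22; 500.1 to 534 against 1280 to 2251 FPKM) were higher. Of 8 fibroblast genes 4 were lower and 2 higher (median -0.51). Among keratinocyte markers, 1 of 8 basal keratinocyte genes was higher and 2 lower (median -0.38). Of 4 hyperproliferation keratins (Krt6a, Krt6b, Krt16 and Krt17) 0 were higher and 1 lower (limma). Their part in the results was not tested.

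Among the S100-fused genes, those that fell were almost lost. Crnn, whose product cornulin is made late in squamous differentiation, stood at 50.8, 44.0, 71.1 and 55.7 FPKM in WT, and in cKO it stood at 2.87, 0.424, 2.09 and 0.420 FPKM. Tchhl1 was at 36.5, 25.8, 53.0 and 44.0 FPKM in WT against 2.31, 0.357, 2.01 and 0.0584 FPKM in cKO. The groups did not overlap for either gene. Crnn fell by 4.65 (log2, SE 0.49, limma adjusted p = 4.57e-07) and Tchhl1 fell by 4.35 (SE 0.55, limma adjusted p = 6.47e-06). Hair follicle and shaft markers moved the same way: the summed level of 11 of 12 listed genes was 2554 to 3759 FPKM in WT at 2 weeks and 11.1 to 68.6 FPKM in cKO, and all 11 were called lower. Their part in the result was not tested.

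The other S100-fused genes went the opposite way. Hrnr, whose product hornerin is a filaggrin-like envelope protein, was at 28.1, 19.8, 36.0 and 30.3 FPKM in WT against 262, 293, 313 and 282 FPKM in cKO. Every cKO library was above every WT library, and the change was 3.31 (SE 0.43, limma adjusted p = 7.14e-06). Flg2, which encodes filaggrin-2, was at 52.2, 37.4, 63.0 and 58.8 FPKM in WT against 155, 171, 162 and 163 FPKM in cKO. The cKO libraries lay close together and the groups were apart, with a change of 1.63 (SE 0.32, limma adjusted p = 0.000746). Rptn (repetin) was at 5.20 to 9.16 FPKM in WT against 12.5 to 16.2 FPKM in cKO, a change of 1.05 (limma adjusted p = 0.0466). Its groups did not overlap, but its call was lost when any of WT replicates 1, 2 and 3 and cKO replicates 1, 3 and 4 was left out (limma adjusted p = 0.0822 to 0.107).

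The Lce1 genes encode the most abundant late envelope proteins. All 13 were higher in cKO at 2 weeks, by 1.11 (Lce1m) to 2.61 (Lce1l), with a median of 2.21. Lce1a1 was at 197, 219, 268 and 221 FPKM in WT against 915, 609, 980.1 and 742 FPKM in cKO, a change of 1.82 (SE 0.40, limma adjusted p = 0.00155). Lce1l was at 44.9 to 68.3 FPKM in WT against 219.9 to 383 FPKM in cKO. Each of the 13 genes had groups that did not overlap. Over the 38 tested genes 26 had a cKO group wholly above WT and 3 wholly below, against 22.5% and 32.2% of all tested genes. Lce1m, the highest of them in WT, was at 284, 255, 335 and 307 FPKM against 910.0, 449, 629 and 627 FPKM. It had the smallest change of its subfamily (1.11, SE 0.37, limma adjusted p = 0.0215), and its call was lost without cKO replicate 1 (0.93, limma adjusted p = 0.0794) or WT replicate 2 (1.04, limma adjusted p = 0.0534). The subfamily is not 13 independent readings. Of the 50-base windows of the other 12 transcripts, 9.12% to 27.1% also occur in another gene, so their reads can be exchanged, while Lce1m shares 0%.

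Of the Lce3 genes, known for their part in the response to barrier injury, 3 of 4 were higher. These calls were not firm: 2 passed with the length trend removed, and 0 when the library of lowest median level in every group was left out (limma adjusted p = 0.0586 to 0.166; 3 at an unadjusted p under 0.05). Lce3c was at 2.96, 1.93, 3.71 and 2.05 FPKM in WT against 15.0, 10.5, 20.8 and 15.3 FPKM in cKO (change 2.15, SE 0.63, limma adjusted p = 0.0104). Lce3f was at 0.0565 to 1.23 FPKM in WT against 3.73 to 7.80 FPKM in cKO (change 2.19, limma adjusted p = 0.0127). Lce3b changed by 1.15 without passing (limma adjusted p = 0.109). Between 12.1% and 48.0% of the windows of these 4 genes are shared, so their values are uncertain singly. Lce6a, with no shared window, was at 33.4, 29.7, 40.1 and 36.1 FPKM in WT against 274, 117, 201 and 127 FPKM in cKO. It rose by 2.26 (SE 0.49, limma adjusted p = 0.00152), with no overlap of the groups.

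The small proline-rich genes did not follow the Lce genes. Sprr1a was at 716, 722, 823 and 875 FPKM in WT against 243, 191, 173 and 192 FPKM in cKO. It fell by 1.97 (SE 0.48, limma adjusted p = 0.00344), with the groups far apart. Its neighbour Sprr1b was at 2.67, 2.54, 4.18 and 3.25 FPKM in WT against 4.36, 6.28, 5.22 and 11.8 FPKM in cKO. All 4 cKO values were above all WT values, yet the change of 0.86 (SE 0.91) did not pass (limma adjusted p = 0.453), since the fit shares its spread with the later ages. Fitted on the 2-week libraries alone, the same change passed (limma adjusted p = 0.0309). Sprr4 was at 796, 972, 998 and 1136 FPKM in WT against 852, 326, 513 and 429 FPKM in cKO, a change of -0.96 that did not pass (limma adjusted p = 0.228), with cKO replicate 1 inside the WT range. It passed on the 2-week libraries alone (limma adjusted p = 0.0249).

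Of 8 tested Sprr2 genes, 2 were higher, Sprr2d and Sprr2i, and 0 were lower at the adjusted threshold of limma or at an unadjusted p under 0.05. Sprr2d was at 0.654, 0.861, 1.0 and 0.145 FPKM in WT against 1.83, 14.6, 7.16 and 10.6 FPKM in cKO (change 2.30, SE 0.86, limma adjusted p = 0.036). Its call was lost when any library of 2 weeks but cKO replicate 1 was left out (limma adjusted p = 0.0547 to 0.0828). Sprr2i rose by 1.75 (limma adjusted p = 0.0268). With the length trend removed neither passed (Sprr2d 1.82, limma adjusted p = 0.117; Sprr2i 1.26, limma adjusted p = 0.148), nor did any other Sprr2 gene. Sprr2a2, the highest of the subfamily, was at 7.76 to 13.1 FPKM in WT against 5.50 to 18.8 FPKM in cKO, with a change of -0.03. Of its 50-base windows 96.5% occur also in other genes, among them Sprr2a1, Gm13525 and Rpl21-ps8. The share of each was not counted, so the values of Sprr2a2 at any age may not stand for this gene alone.

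The first-laid and bulk envelope proteins did not pass at 2 weeks. Lor was at 618, 563, 759 and 710.2 FPKM in WT against 130.3, 337, 603 and 447 FPKM in cKO, a change of -0.99 (SE 0.52, limma adjusted p = 0.122). The groups overlapped through cKO replicate 3. Ivl was at 35.8 to 54.6 FPKM in WT against 53.3 to 92.1 FPKM in cKO (change 0.59, limma adjusted p = 0.228). Cnfn was at 98.7 to 143 FPKM in WT against 136 to 195 FPKM in cKO (change 0.42, limma adjusted p = 0.45). Krtdap was at 1619, 1474, 1792 and 1713 FPKM in WT against 10862, 3927, 7329 and 6616 FPKM in cKO. It rose by 2.03 (SE 0.45, limma adjusted p = 0.00171), and the groups did not overlap.

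**Figure D2:**
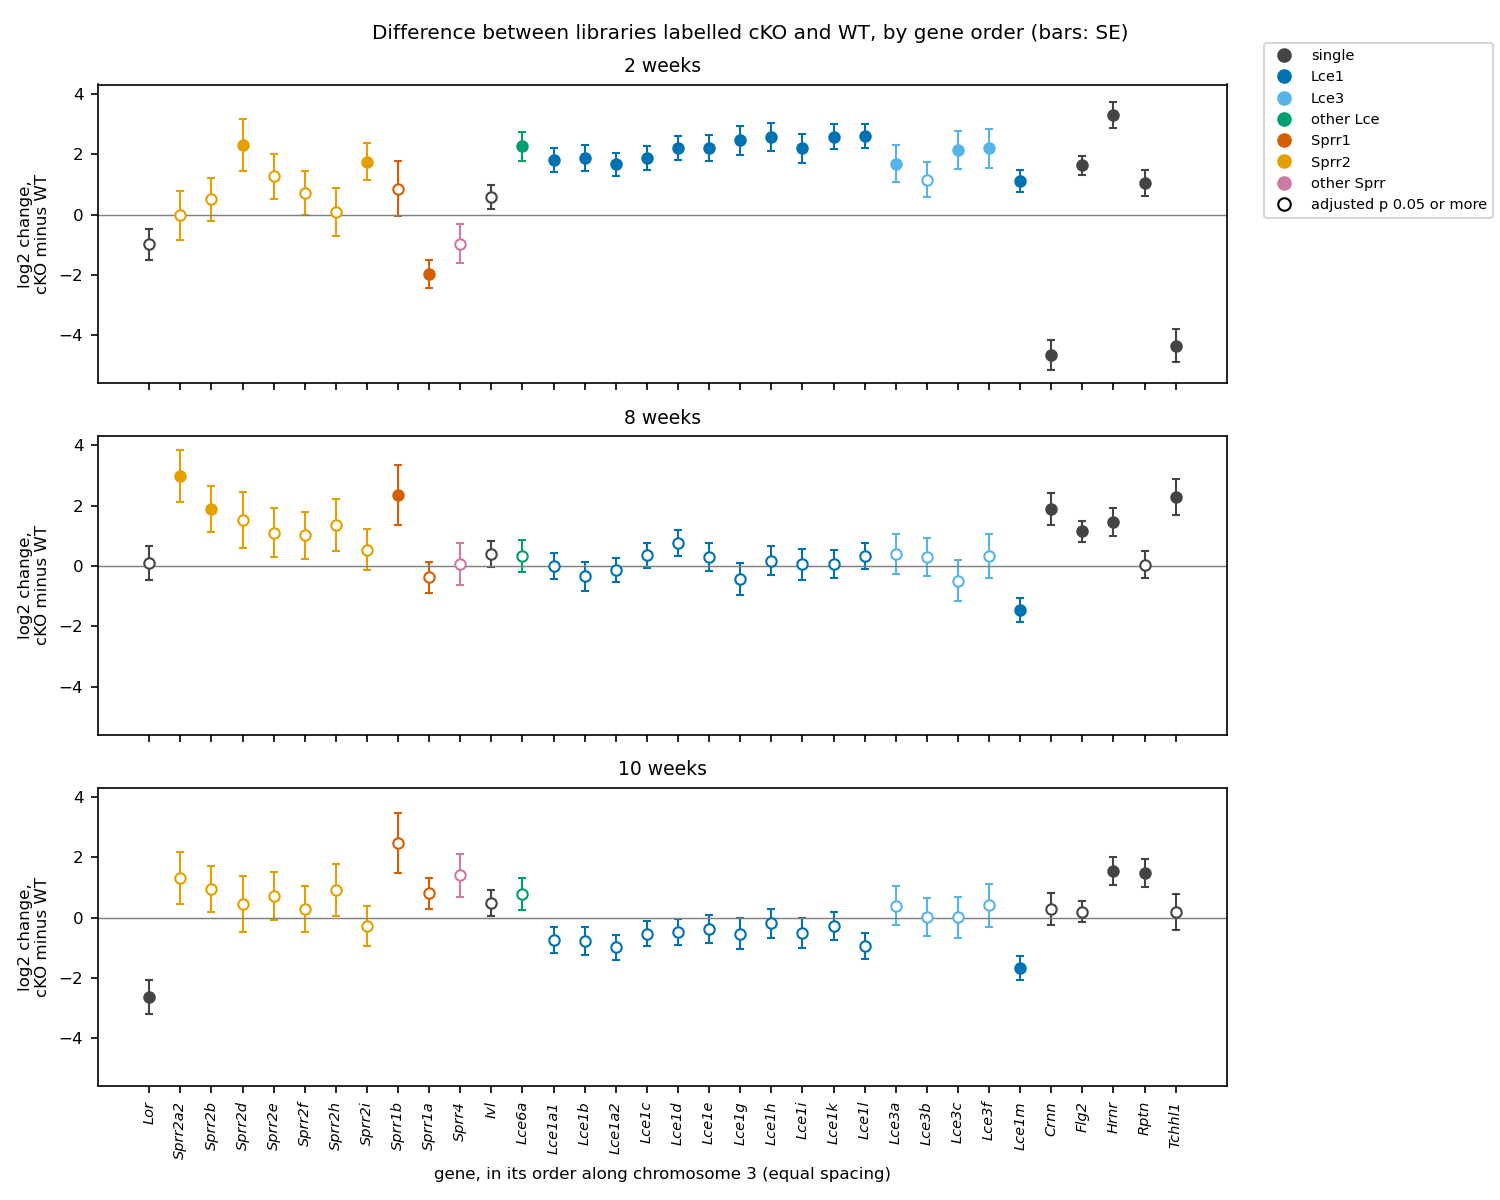
Change in log2(FPKM + 1), cKO minus WT, with its SE, for the 34 tested genes placed on chromosome 3, in their order along it, at 2, 8 and 10 weeks. Filled points passed at an adjusted p under 0.05. At 2 weeks the run of Lce genes is raised together between the Sprr genes and Crnn, and at 8 and 10 weeks Lce1m is the only filled Lce point, below 0.

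Neighbouring genes went in different directions at 2 weeks. From Lor the row runs through the Sprr2 genes, Sprr1b, Sprr3, Sprr1a, Sprr4, Ivl, Lce6a, the Lce1 and Lce3 genes, Lce1m, Crnn, Flg2, Hrnr, Rptn and Tchhl1. Crnn (-4.65) was followed by Flg2 (1.63), Hrnr (3.31), Rptn (1.05) and Tchhl1 (-4.35). Sprr1a (-1.97) and Sprr1b (0.86) are neighbours among the tested genes. The calls at 2 weeks stood after median-of-ratios scaling (23 higher, 3 lower). When the trend of level with transcript length was removed within each library, 20 were higher and 3 lower.

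At 8 weeks, Crnn, Tchhl1, Sprr1b, Sprr2a2, Sprr2b, Hrnr and Flg2 were called higher in cKO and Lce1m lower. These are 7 higher and 1 lower of 38 tested, while over all tested genes 62.2% were higher and 3.58% lower. The count of higher genes was thus far below the background. The median change of the 38 was 0.33, against 0.82 over all genes. Without WT replicate 3, 3 were higher and 1 lower. After median-of-ratios scaling 2 were higher (Crnn 1.67, Tchhl1 2.03) and 6 lower (Lce1m -2.58, Krtdap -2.02, Sprr1a -1.49, Lce1g -1.56, Lce1b -1.47 and Lce1a2 -1.26). Scaling turned the sign of 19 of the 38 changes at 8 weeks, of which 0 had been called, and 3 of the 8 calls passed under both (Crnn, Tchhl1 and Lce1m). When the trend with length was removed, 18 were higher and 1 lower, with all 8 calls kept. Of 8 basal keratinocyte genes 7 were higher and 0 lower (median 2.28; 6 and 0 after scaling). Of 4 hyperproliferation keratins 3 were higher and 0 lower (median 3.35; 3 and 0 after scaling). Of 7 skeletal muscle genes 4 were higher and 0 lower (2 and 1 after scaling), and of 8 fibroblast genes 6 and 0 (1 and 0 after scaling). The part of these markers in the results was not tested.

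Crnn at 8 weeks was at 0.0858, 0.350 and 0.103 FPKM in WT against 6.78, 0.245, 11.6 and 2.05 FPKM in cKO. Tchhl1 was at 0.0328, 0.208 and 0.237 FPKM in WT against 11.6, 0.225, 15.4 and 3.19 FPKM in cKO. For both genes cKO replicate 2 lay within the WT range and the other 3 lay above it. Crnn rose by 1.90 (SE 0.53, limma adjusted p = 0.00424) and Tchhl1 by 2.30 (SE 0.60, limma adjusted p = 0.00263). Both calls were lost with array quality weights (Crnn 1.22, limma adjusted p = 0.138; Tchhl1 1.63, limma adjusted p = 0.0972). The summed hair markers ran in the same order over these cKO libraries, at 176, 29.2, 469 and 102 FPKM, against 4.80 to 16.3 FPKM in WT at 8 weeks, and their part was not tested.

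Lce1m was at 1366, 589.5 and 485 FPKM in WT at 8 weeks against 505, 177, 381 and 148 FPKM in cKO. It fell by 1.45 (SE 0.40, limma adjusted p = 0.00406), and by 2.58 after scaling. The ranges overlapped by a single library, cKO replicate 1. The 12 other Lce1 genes did not pass, with changes from -0.43 (Lce1g) to 0.76 (Lce1d), and their direction depended on the processing. All 12 were negative after scaling, whereas 8 Lce1 genes were called higher when the length trend was removed (median of the 13 0.89; Lce1d 1.57, limma adjusted p = 0.000403). Lce1m was called lower there too (-0.75, limma adjusted p = 0.0262). Hrnr was at 38.4, 18.5 and 11.3 FPKM in WT against 78.4, 29.6, 125 and 37.6 FPKM in cKO (change 1.47, limma adjusted p = 0.00912). After scaling its change was 0.38 (limma adjusted p = 0.566). Flg2 was at 34.2, 29.1 and 17.1 FPKM in WT against 78.9, 35.7, 103 and 41.2 FPKM in cKO (change 1.16, limma adjusted p = 0.00723), and at 0.06 after scaling. Without WT replicate 3, the calls of Hrnr (1.08, limma adjusted p = 0.0769) and Flg2 (0.88, limma adjusted p = 0.0574) were lost.

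In FPKM as deposited the 2 largest changes at 8 weeks were of Sprr genes, whereas after scaling that of Lce1m (-2.58) was the largest. Sprr2a2 was at 1.26, 1.71 and 3.35 FPKM in WT against 10.2, 20.3, 36.7 and 35.5 FPKM in cKO, a change of 3.0 (SE 0.86, limma adjusted p = 0.00523). After scaling it was 2.11 (limma adjusted p = 0.0649). Sprr1b was at 4.07, 0.630 and 1.79 FPKM in WT against 4.62, 5.55, 26.3 and 42.6 FPKM in cKO. Its change of 2.35 passed narrowly (SE 0.99, limma adjusted p = 0.0421) and was lost after scaling (1.49, limma adjusted p = 0.269), with the replicate number as a block (2.22, limma adjusted p = 0.067), and without WT replicate 2 (1.95, limma adjusted p = 0.132) or 3 (2.33, limma adjusted p = 0.0994) or cKO replicate 3 (2.04, limma adjusted p = 0.0963) or 4 (1.82, limma adjusted p = 0.13). Sprr2b changed by 1.88 (limma adjusted p = 0.0347), and by 1.07 after scaling (limma adjusted p = 0.286). The groups of these 3 genes and of Flg2 did not overlap: 4 of 38, where 45.5% of all tested genes had a cKO group wholly above WT. Wholly below were 0 of 38 and 2.14% of all.

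The remaining singly named and Sprr members named by rule did not pass at 8 weeks. Lor was at 282, 295 and 130.4 FPKM in WT against 136, 258, 892 and 105 FPKM in cKO (change 0.11, scaled -1.01). Krtdap was at 16408, 4122 and 5681 FPKM in WT against 7160, 2065, 6943 and 2366 FPKM in cKO (change -0.88, limma adjusted p = 0.113; called lower after scaling). Sprr1a was at 139, 161 and 65.6 FPKM in WT against 124, 21.4, 165 and 134 FPKM in cKO (change -0.37, limma adjusted p = 0.537; called lower after scaling). In each the groups overlapped widely. Sprr4 in cKO split into 341 and 234 FPKM in replicates 1 and 3 against 13.8 and 31.6 FPKM in replicates 2 and 4, around WT values of 50.9, 72.9 and 111 FPKM (change 0.06, scaled -1.05). Ivl (change 0.41, scaled -0.68) and Cnfn (change 0.08, scaled -1.05) also overlapped between groups, and Lor, Sprr4, Ivl and Cnfn did not pass after scaling either. Rptn changed by 0.05 (scaled -0.82, limma adjusted p = 0.192). Lce6a changed by 0.35 (scaled -0.77), Lce3f by 0.33 (scaled -0.59) and Lce3c by -0.49 (scaled -1.56), and these did not pass either way. With the length trend removed Lce6a was called higher at 8 weeks (1.10, limma adjusted p = 0.0251) and at 10 weeks (1.31, limma adjusted p = 0.0265).

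At 10 weeks, Lor and Lce1m were lower in cKO, and Hrnr and Rptn were higher. These 2 higher and 2 lower of 38 compare with 20.7% higher and 4.6% lower over all tested genes. The median change of the 38 was 0.11, against 0.24 over all. Without WT replicate 3, 2 genes were called, both lower. A cKO group wholly above WT was seen in 3 of 38 and wholly below in 5, against 29.7% and 11.2% of all tested genes. Of 8 basal keratinocyte genes 3 were higher and 1 lower (median 0.86), and of 4 hyperproliferation keratins 3 and 0 (median 2.59). Of 7 skeletal muscle genes 0 were higher and 2 lower (median -1.09; limma). The part of these markers in the results was not tested. Lor was at 1741, 961 and 961 FPKM in WT against 147, 272, 224 and 146 FPKM in cKO. The lowest WT library lay far above the highest cKO library, and the change was -2.62 (SE 0.56, limma adjusted p = 0.00176). After scaling it was -2.92 (limma adjusted p = 0.000507).

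Lce1m was at 1202, 629.8 and 784 FPKM in WT at 10 weeks against 312, 308, 179 and 268 FPKM in cKO. It fell by 1.68 (SE 0.40, limma adjusted p = 0.004), by 1.99 after scaling, and the groups did not overlap. The 12 other Lce1 genes changed by -0.98 (Lce1a2) to -0.18 (Lce1h) without passing (limma; 3 of the 13 had an unadjusted p under 0.05, Lce1m included). WT replicate 1 was the highest library of its group for each of Lce1a1 (1182 against 417 and 432 FPKM), Lce3c (70.1 against 7.04 and 10.2 FPKM) and Lor. Without it and cKO replicate 3, Lce1m changed by -1.25 (limma adjusted p = 0.0854). With array quality weights all 13 Lce1 genes were called lower (median -1.28), whereas with the length trend removed their median was -0.01 and Lce1m alone was called.

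Hrnr at 10 weeks was at 63.1, 32.2 and 14.5 FPKM in WT against 87.2, 109, 114 and 68.1 FPKM in cKO. All cKO libraries were above all WT libraries, with a change of 1.55 (SE 0.46, limma adjusted p = 0.0176). Rptn was at 2.88, 1.08 and 0.841 FPKM in WT against 3.91, 3.94, 11.1 and 6.45 FPKM in cKO, likewise without overlap (change 1.48, SE 0.45, limma adjusted p = 0.0201). Neither passed after scaling (Hrnr 1.24, limma adjusted p = 0.0576; Rptn 1.25, limma adjusted p = 0.0552). Neither passed without WT replicate 3 (Hrnr 1.02, limma adjusted p = 0.18; Rptn 1.27, limma adjusted p = 0.119), and Rptn was also lost without WT replicate 2 (limma adjusted p = 0.0609) or cKO replicate 3 (limma adjusted p = 0.0738). Flg2 was no longer apart, at 87.8, 77.1 and 31.9 FPKM in WT against 62.4, 83.6, 68.1 and 64.8 FPKM in cKO (change 0.20, scaled -0.10).

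Sprr1b rested on single libraries at 10 weeks. It was at 85.4, 3.79 and 0.499 FPKM in WT against 18.5, 46.1, 208 and 24.7 FPKM in cKO, a change of 2.47 that did not pass (SE 0.99, limma adjusted p = 0.0719). Without WT replicate 1 the change was 4.14 (limma adjusted p = 0.00168). Sprr4 was at 75.9, 52.8 and 49.8 FPKM in WT against 146, 152, 135 and 195 FPKM in cKO. Its groups did not overlap, but the change of 1.40 did not pass (limma adjusted p = 0.148) except with the 10-week libraries alone (limma adjusted p = 0.00188) or with array quality weights (1.09, limma adjusted p = 0.0132). Sprr1a was at 172, 74.8 and 80.7 FPKM in WT against 146, 169, 362 and 114 FPKM in cKO (change 0.81, limma adjusted p = 0.267).

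A single cKO library held most of the Sprr2 signal at 10 weeks. Sprr2a2 was at 157 FPKM in cKO replicate 3 and at 2.82, 2.99 and 6.91 FPKM in the other 3. Sprr2d was at 61.3 FPKM there, against 0.944 to 4.92 FPKM in the others. The summed Sprr2 level was 423 FPKM in that library and 11.2 to 19.3 FPKM in its group, and 5.97 to 69.9 FPKM in WT. Of the 8 Sprr2 genes 0 passed (limma; also 0 at an unadjusted p under 0.05), and 0 of 4 Lce3 genes passed likewise. Lce3b (0.02) and Lce3c (0.01) turned to -0.14 and -0.28 after scaling. Crnn was at 0.0392 to 1.36 FPKM in cKO and 0 to 0.213 FPKM in WT, and Tchhl1 at 0 to 1.30 against 0.0989 to 0.190 FPKM, with changes of 0.30 and 0.20 that did not pass.

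**Figure D3:**
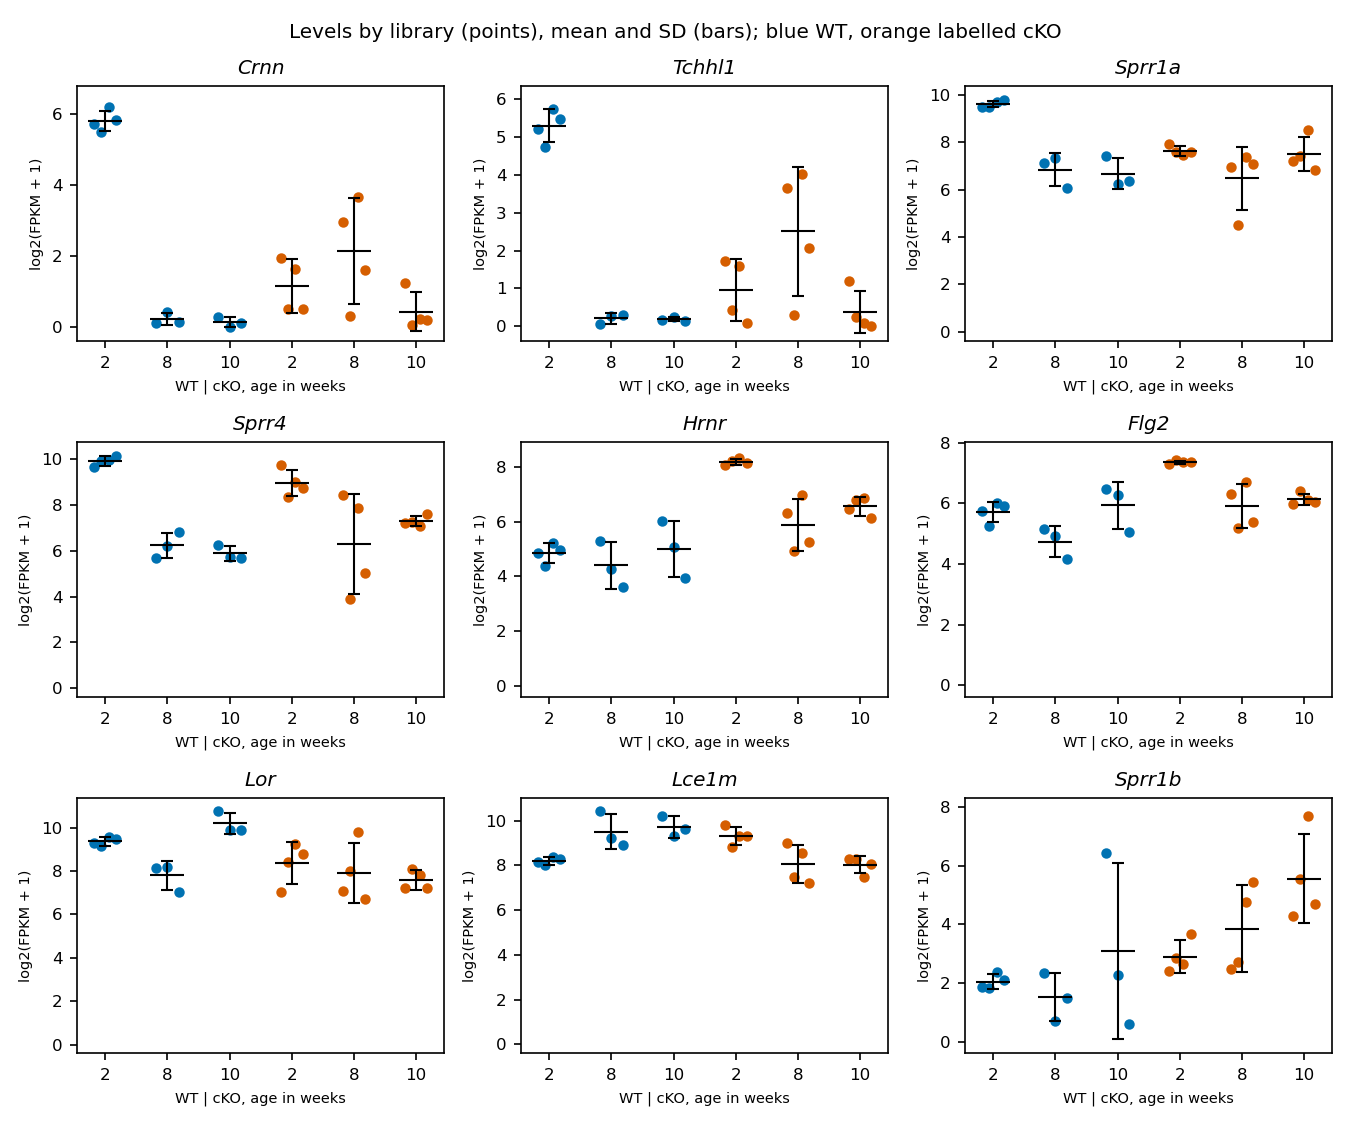
Level of 9 genes in every library as log2(FPKM + 1), by genotype and age (points: libraries; bars: mean and SD). Crnn and Tchhl1 are high in the 4 WT libraries of 2 weeks, Hrnr and Flg2 peak in the cKO libraries of 2 weeks, and Lor separates the genotypes at 10 weeks.

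The change in genotype difference from 2 to 8 weeks was tested as an interaction. It uses the same libraries as the comparisons within each age. Of 38 genes, 17 had a lower and 3 a higher difference at 8 weeks (limma), against 6.93% lower and 57% higher over all tested genes. All 13 Lce1 genes were among the lower ones, by -1.46 (Lce1d) to -2.90 (Lce1g). They were joined by Krtdap (-2.92, SE 0.66, limma adjusted p = 0.000884), Lce3c (-2.64, SE 0.93, limma adjusted p = 0.0176), Lce6a (-1.91, SE 0.72, limma adjusted p = 0.0258) and Hrnr (-1.84, SE 0.63, limma adjusted p = 0.015). The higher ones were Tchhl1 (6.65, SE 0.82, limma adjusted p = 4.14e-06), Crnn (6.55, SE 0.72, limma adjusted p = 1.22e-06) and Sprr2a2 (3.04, SE 1.17, limma adjusted p = 0.029). After median-of-ratios scaling 2 were higher and 21 lower, with all 13 Lce1 genes lower. With the trend of length removed 4 were higher and 5 lower, of which 3 were Lce1 genes, and without WT replicate 1 of 8 weeks 2 were higher and 11 lower. From 8 to 10 weeks the difference changed for Lor alone (-2.73, SE 0.79, limma adjusted p = 0.0376; over all genes 0.877% higher and 8.51% lower), and Lor did not pass after scaling. Without WT replicate 1 or 3 of 8 weeks, WT replicate 1 or 2 of 10 weeks or cKO replicate 1 or 4 of 10 weeks 0 passed (limma; 2 to 5 at an unadjusted p under 0.05), and 2 passed without cKO replicate 1 or 2 of 8 weeks.

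In WT ear from 2 to 8 weeks, Crnn fell by 5.57 (limma adjusted p = 4.58e-08), Tchhl1 by 5.1 (limma adjusted p = 5.72e-07), Sprr4 by 3.68 (limma adjusted p = 9.41e-05) and Sprr1a by 2.77 (limma adjusted p = 8.8e-05). These 4 were also lower after scaling (-5.13, -4.63, -2.46 and -1.54). Lor (-1.57) and Flg2 (-0.98) were also called lower but not after scaling (-0.34 and 0.22). Krtdap (2.14), Lce3c (2.61) and 7 Lce1 genes were higher. In all 9 were higher and 6 lower of 38, against 9.69% and 65.3% over all tested genes, whose median was -0.94. After scaling 17 were higher and 4 lower, with all 13 Lce1 genes higher. With the length trend removed the split turned to 1 higher and 9 lower (Lce1 median -0.24), and without WT replicate 1 of 8 weeks to 3 higher and 7 lower. The rise of the Lce1 genes in WT therefore depends on the processing. The WT libraries of 2 weeks held 2554 to 3759 FPKM of hair markers and those of 8 weeks 4.80 to 16.3 FPKM, with all 11 called lower, and their part in the fall of Crnn and Tchhl1 was not tested.

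In WT from 8 to 10 weeks, Lor (2.40, limma adjusted p = 0.0104), Flg2 (1.19), Lce1l (1.28) and Lce1d (1.21) were higher, 4 of 38 against 30.8% of all genes, with 0 lower (0.587% of all; limma, and also 0 at an unadjusted p under 0.05). After scaling 0 passed (limma; 3 at an unadjusted p under 0.05). Leaving out WT replicate 3 of 8 weeks left 0 (limma; 4 at an unadjusted p under 0.05), replicate 2 of 8 weeks 2, and replicate 1 or 2 of 10 weeks 1 each. In cKO from 2 to 8 weeks, Hrnr fell by 2.30 (SE 0.43, limma adjusted p = 0.00686), Flg2 by 1.45, Rptn by 1.81 and Sprr4 by 2.66. These 4 compare with 0.849% lower over all genes. Of the 38, 0 rose, against 0.382% of all (limma; 1 at an unadjusted p under 0.05). When cKO replicate 2, 3 or 4 of 2 weeks or replicate 4 of 8 weeks was left out, 1 gene was called, and 2 were called without replicate 1 of 2 weeks or replicate 2 of 8 weeks. The Lce1 genes changed by -1.25 to -0.93 in this comparison and 0 of 13 passed (limma; 12 lower at an unadjusted p under 0.05). With array quality weights all 13 were called lower (median -1.74), and 3 with the length trend removed. From 8 to 10 weeks in cKO, Tchhl1 fell by 2.13 (limma adjusted p = 0.0374; 1.08% of all genes lower, 1.97% higher) and was the only member called. It was lost without cKO replicate 1 or 3 of 8 weeks or 2 or 4 of 10 weeks, which left 0 called (limma; 2 to 5 at an unadjusted p under 0.05), while 2 were called without replicate 2 of 8 weeks or 3 of 10 weeks. These comparisons share libraries with one another and with the genotype comparisons.

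The rest of the envelope machinery was read from lists in the same fit. Over all tested genes 17.7% were called higher and 27.1% lower at 2 weeks, 62.2% and 3.58% at 8 weeks, and 20.7% and 4.6% at 10 weeks, and the counts below are read against these shares. Of 18 cross-linking and processing enzymes, 3 were higher and 5 lower at 2 weeks, close to those shares. The most changed were Padi3 (-5.42, limma adjusted p = 4.38e-11) and Padi1 (-2.86, limma adjusted p = 3.56e-10), peptidylarginine deiminases that citrullinate trichohyalin and filaggrin. At 8 weeks 9 were higher, a smaller share than over all genes, and 1 lower (4 and 1 after scaling), led by Tgm3, a transglutaminase (2.80, scaled 2.08), and Cst6, the cystatin M/E protease inhibitor (-2.52, scaled -3.65). At 10 weeks 5 were higher (2 after scaling), led by the lipoxygenase gene Alox12b (1.51, limma adjusted p = 0.00612) and the caspase gene Casp14 (1.38, limma adjusted p = 0.0129), of which Casp14 did not pass after scaling (1.10, limma adjusted p = 0.0642).

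Of 10 scaffold and corneodesmosome genes, 4, 7 and 2 were higher at 2, 8 and 10 weeks (4, 3 and 2 after scaling) and 0 lower at any age (limma). Against all genes (17.7%, 62.2% and 20.7% higher), the counts at 8 and 10 weeks were close to the background. Dsc1 and Dsg1b, desmosomal cadherins of the upper epidermis, led at each age: 2.25 and 2.06 at 2 weeks, 4.11 and 4.10 at 8 weeks, and 3.17 and 3.68 at 10 weeks. Of 6 suprabasal keratins, 1, 6 and 2 were higher (1, 3 and 2 after scaling). Krt78 rose by 1.20 at 2 weeks, Krt80 by 4.88 and Krt1 by 3.19 at 8 weeks, and Krt80 by 2.80 and Krt1 by 1.97 at 10 weeks. Krt10, the main keratin of the spinous layer, was at 432 FPKM in cKO replicate 1 of 2 weeks and at 3753, 2937 and 3898 FPKM in the other 3, around 2823 to 3395 FPKM in WT, and it did not pass (-0.54, limma adjusted p = 0.432).

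Of 19 regulators of terminal differentiation, 0 were higher and 4 lower at 2 weeks, 14 and 0 at 8 weeks (4 and 1 after scaling), and 7 and 2 at 10 weeks (5 and 2 after scaling). The 4 lower at 2 weeks and the 14 higher at 8 weeks lay near the shares of all genes (27.1% and 62.2%). Gata3, a transcription factor of differentiating epidermis, was among the lower ones at 2 weeks (-1.31). Grhl3 (2.74) and Cebpa (2.40) led at 8 weeks. The AP-1 genes Fosl1 (5.28, limma adjusted p = 1.62e-09) and Junb (3.44, limma adjusted p = 0.00128) led at 10 weeks. Of 16 tested other genes of the same complex, 10 were higher and 2 lower at 2 weeks (all genes 17.7% and 27.1%). S100a8, a subunit of calprotectin, rose by 4.59 and S100a3, a gene of the hair cuticle, fell by 5.47. At 8 weeks 5 were higher, a far smaller share than the 62.2% of all genes, and 2 lower, led by Kprp (1.17, scaled 0.08) and S100a14 (1.14, scaled 0.01), and after scaling 0 were higher and 7 lower. At 10 weeks Pglyrp3, a peptidoglycan recognition protein gene, was the only one called (1.29, limma adjusted p = 0.000198). The direction of these 16 genes at 8 weeks depended on the processing. With the length trend removed 7 were higher and 2 lower at 2 weeks, 7 and 0 at 8 weeks, and 4 and 0 at 10 weeks.

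**Figure D4:**
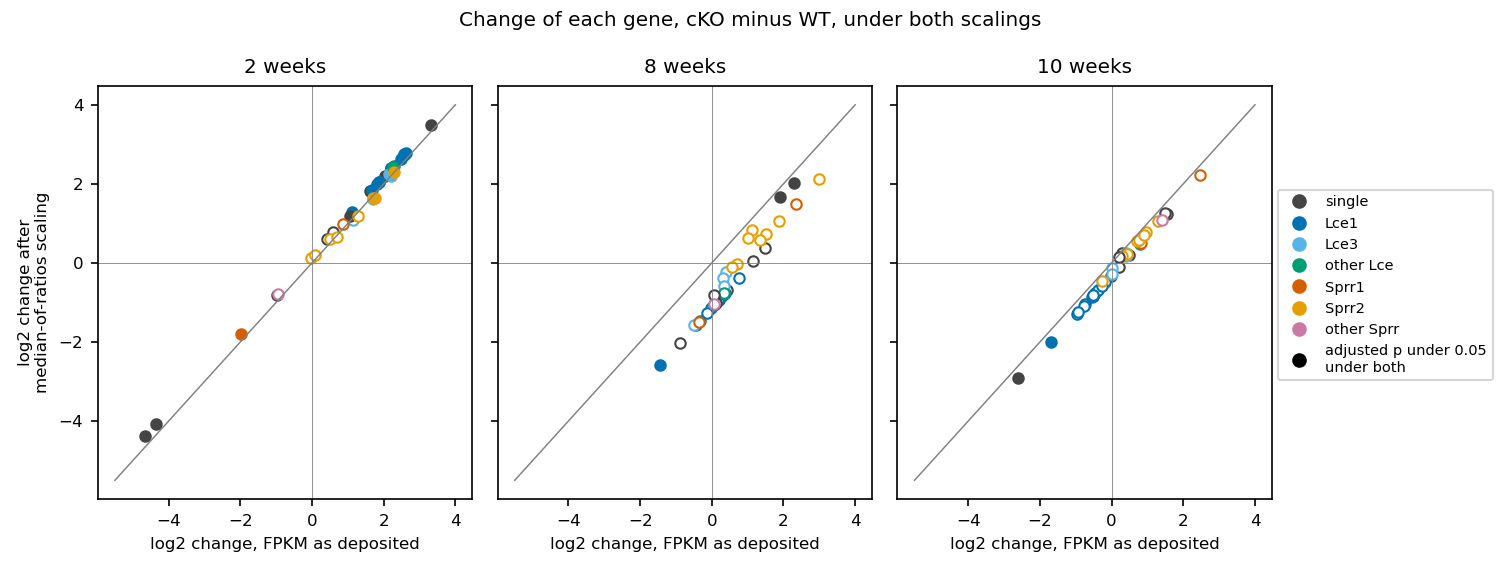
Change of each tested gene (cKO minus WT, log2 scale) with FPKM as deposited (x axis) and after median-of-ratios scaling (y axis), at 2, 8 and 10 weeks. The line marks equal values and filled points passed under both. At 2 weeks the points lie near the line, and at 8 weeks nearly all lie below it.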

How the data were processed

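The deposited values were FPKM per gene symbol that the authors made with TopHat2 2.1.0 and Cufflinks on mm9, per the submitters' processing notes. Per the labels' protocols, RNA was extracted from ear with TRIzol, libraries were made with a TruSeq RNA kit that does not mark strand, and single-end reads of 50 bases were sequenced. Counts were not used, so depth is unknown and no counting interval is given.

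From the 22 files (21110 rows each), log2(FPKM + 1) of genes at 1 FPKM or more in 3 or more libraries (14139 genes) was modelled by limma 3.58.1 (R 4.3.3) as means of 6 groups with a trended prior, with 9 contrasts and Benjamini-Hochberg adjustment over all tested genes. A call is an adjusted p under 0.05. Whether each library is a separate animal is not in the labels, and the p-values then reflect the spread between libraries, which may be technical. Replicate libraries correlated at 0.874 to 0.977 and 0 pairs were identical. Alternatives were a pseudocount of 0.1, other filters, median-of-ratios scaling, the compared groups alone, array quality weights, removal of a length trend (loess over transcript lengths of GENCODE M21), the replicate number as a block and leaving out libraries. Leaving out WT 1 and cKO 3 of 10 weeks was chosen after seeing the data. On simulated data a log2 change of 2 in 200 of 14139 genes was recovered in 97%, 95.5% and 94.5% at 2, 8 and 10 weeks, and a change of 1 in 53.5%, 43% and 32.5%.

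Replicate numbers are labels shared by all groups. Deviations of same-numbered libraries correlated above 0.1 in every pair for cKO at 2 and 8 weeks (0.111 to 0.735), and for no other compared groups. WT at 10 weeks and cKO at 2 weeks, which differ in genotype and age and were not compared, also passed this mark (0.145 to 0.287). The mark therefore does not show pairing. In each cKO group Eif2s3y was above 1 FPKM in replicates 1 and 2 and below it in 3 and 4, so the number also follows this Y-linked gene. With the block the same 4 genes were called in cKO from 2 to 8 weeks.

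The members and lists were chosen with earlier results of these data known. Named were the singly named genes, the 2 highest genes of each subfamily, the largest rise and fall in a subfamily, and the 2 most changed called genes of each pathway list. Promoters and transcripts came from RefSeq (GRCm38.p6) and GENCODE tables, with Python 3.11.15, numpy 2.4.6, pandas 2.3.3, Biopython 1.88 and matplotlib 3.10.9. One gene of the regulator list named by that rule is not reported here.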

Additional observations from a re-analysis of the deposited data

Results flagged for a closer look

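In groups of 4 libraries, 8 of 80 tested sets of values had a library set apart from the other 3 by Dixon's gap test, where chance gives about 1 in 20. Of the 8, 5 were replicate 3 of cKO at 10 weeks. It held Sprr2a2 at 157 FPKM (others up to 6.91), Sprr2d at 61.3 FPKM (up to 4.92), Sprr1b at 208 FPKM (up to 46.1), Lce3c at 54.0 FPKM (up to 15.0) and Lce3f at 27.2 FPKM (up to 3.40). In replicate 1 of the same group Crnn was at 1.36 FPKM (others up to 0.169) and Tchhl1 at 1.30 FPKM (others up to 0.180), and that library also held 81.2 FPKM of hair markers against 6.93 to 10.6 FPKM in the other 3. Sprr3 was at 0.116 FPKM in replicate 3 of cKO at 2 weeks and at 0 in the other 3.

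The genotype difference changed between ages for 10 named genes by limma's interaction term. From 2 to 8 weeks it rose for Crnn (6.55), Tchhl1 (6.65) and Sprr2a2 (3.04) and fell for Hrnr (-1.84), Krtdap (-2.92), Lce1a1 (-1.83), Lce1m (-2.56), Lce3c (-2.64) and Lce6a (-1.91). From 8 to 10 weeks it fell for Lor (-2.73). Every one of these 10 rests on WT libraries of 8 weeks, in which 50.5% to 73.0% of receptor genes were above 0, and the part of that background was not tested.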

How the results depend on the processing

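Counts of called members (38 tested; limma) are given as higher and lower together. At 2 weeks 26 were called, and no alternative moved that count by over 1.5 times. At 8 weeks 8 were called. Median-of-ratios scaling also gave 8, but with the split turned to 2 higher and 6 lower. Array quality weights gave 5 (1 higher, 4 lower), the length trend 19, and leaving out each group's library of lowest median 4. At 10 weeks 4 were called: scaling gave 2, array weights 19 (3 higher, 16 lower) and leaving out the lowest libraries 2. For WT from 2 to 8 weeks 15 were called, 24 with the compared groups alone and 10 with the length trend removed (1 higher, 9 lower). For WT from 8 to 10 weeks 4 were called, 0 after scaling, 1 with the compared groups alone, 13 with the length trend removed, 2 without the lowest libraries and 0 without WT 1 and cKO 3 of 10 weeks. For cKO from 2 to 8 weeks 4 were called, 2 with a pseudocount of 0.1, 2 with no filter, 0 with the compared groups alone and 24 with array weights. For cKO from 8 to 10 weeks 1 was called, 0 with a pseudocount of 0.1, with no filter, with the compared groups alone or without the lowest libraries, 16 with array weights (15 higher, 1 lower), 2 with the replicate block and 2 without WT 1 and cKO 3 of 10 weeks. For the genotype difference from 2 to 8 weeks 20 were called and 9 with the length trend removed. From 8 to 10 weeks 1 was called, 2 with no filter, 0 after scaling, with the compared groups alone or without WT 1 and cKO 3, and 3 with array weights (2 higher, 1 lower) or the length trend removed. Where a count was 0, 2 to 12 members had an unadjusted p under 0.05. Except for the fits with fewer libraries, the cause was not tested.

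Leaving out each replicate gave 21 to 24 calls at 2 weeks, 4 to 9 at 8 weeks (4 without WT replicate 3), 2 to 5 at 10 weeks (2 without WT replicate 3), 10 to 17 for WT from 2 to 8 weeks (10, split 3 higher and 7 lower, without WT replicate 1 of 8 weeks), 0 to 5 for WT from 8 to 10 weeks, 1 to 5 and 0 to 2 for cKO, and 13 to 21 and 0 to 2 for the genotype differences (13 without WT replicate 1 of 8 weeks).

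The replicate block gave 26, 8 and 4 calls at 2, 8 and 10 weeks. At 8 weeks Sprr1b was lost and Lce1d gained. Across ages it gained Ivl and Lce1c in WT and Crnn in cKO, and changed no other call.

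Of 24 called genotype results of named members, 10 kept their call in every alternative run. Over their 401 alternatives 348 calls were kept, 53 were lost and 0 reversed. Of 33 results that did not pass, 76 of 549 alternatives had the other sign, 2 of them called: Lce1a1 at 8 weeks with the length trend removed (0.80, limma adjusted p = 0.0413) and Lce3c at 10 weeks with array weights (-1.47, limma adjusted p = 0.0358). Depth is unknown and limits low genes such as Lce3a, Sprr2f and Sprr3.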

Other observations

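Ratios of 2 genes within a library do not move with a scaling of the whole library, and are given here with no test. The ratio of Hrnr to Lor in FPKM was 0.0352 to 0.0474 in WT and 0.519 to 2.01 in cKO at 2 weeks, 0.0627 to 0.136 and 0.115 to 0.576 at 8 weeks, and 0.0151 to 0.0362 and 0.400 to 0.593 at 10 weeks. The genotypes overlapped at 8 weeks and not at 2 or 10 weeks. The ratio of Sprr1b to Sprr1a was 0.00352 to 0.00508 in WT and 0.0179 to 0.0618 in cKO at 2 weeks, 0.00391 to 0.0292 and 0.0372 to 0.318 at 8 weeks, and 0.00618 to 0.496 and 0.127 to 0.574 at 10 weeks. It was higher in every cKO library at 2 and 8 weeks, and the genotypes overlapped at 10 weeks through WT replicate 1. These ratios show unequal change of the 2 genes and not which of them changed.

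Together the 41 genes took 1.14% to 1.48% of the summed FPKM in WT at 2 weeks and 2.01% to 2.97% in cKO at 2 weeks. The summed Lce1 level was 1272 to 1771 FPKM and 3984 to 6882 FPKM in these groups. At 8 weeks the share was 1.30% to 2.31% in WT and 0.796% to 2.26% in cKO.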
